A study of Drosophila melanogaster with 2 samples.

Results

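Genes encoding insulator proteins and promoter binding proteins of Drosophila were examined for binding by Corto, a chromodomain protein of the group of Enhancers of Trithorax and Polycomb. The genes were chosen by name: CTCF, BEAF-32, Cp190, su(Hw), mod(mdg4), pita, M1BP, Dref and dwg, which are 9 of the 13945 protein-coding genes annotated on the 6 chromosome arms. All 9 symbols were found in the Ensembl annotation. For each gene, peak summits were taken from the gene span plus 5 kb on either side, and separately from within 500 bp of a transcription start site (TSS).

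The embryos came from a transgenic line that stably expressed Corto with green fluorescent protein (GFP) fused to its C terminus, and chromatin was precipitated with an antibody to GFP. Male and female embryos were pooled over 0 to 24 h of age and used whole, so cell types and stages were mixed, and 1 transgenic line was used. The sources used here do not name the regulatory DNA that drove the transgene. There were 2 biological replicates of 1 group and no second condition, so the replicates show the spread and no test between groups exists. The deposited values were peak positions and peak signals. The scale of the signal is not stated, and read depth is unknown. The lists used were 4. Each replicate and the pooled reads had a list of 30000 entries of peaks and background, and the optimal set held 2644 peaks that passed the irreproducible discovery rate (IDR), a measure of consistent ranking between replicates. The optimal set was the strongest part of the pooled list, with signals of at least 81.2 and a median of 113. A peak in this set did not always have an entry within 200 bp in both replicate lists. Signals were compared only within a list.

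Insulator proteins bind chromatin boundaries and keep enhancers and silencers from acting on genes across them. In flies the zinc finger proteins CTCF, su(Hw), pita and Zw5 (the product of dwg) and the BED finger protein BEAF-32 recognise DNA, while Cp190 and mod(mdg4) are BTB domain cofactors that such proteins recruit. Dref and M1BP bind short elements in the promoters of broadly expressed genes, the DNA replication-related element (DRE) and the promoter element called motif 1.

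The DNA upstream of 6 of these TSSs is shown because it holds at least 1 promoter summit described below, or, for dwg, because none was found. Not every summit described lies in it. The second M1BP summit and the replicate 1 summit of CTCF lie beyond the bases shown. Each run is on the strand of the gene, written 5′ to 3′ from the release 6 genome, and ends at the base before the most upstream TSS. It goes back to the next annotated exon or to 300 bases. Capitals mark matches on either strand to TATCGATA, the DRE, or to CGATA, the core that BEAF-32 recognises; a DRE holds 2 overlapping cores. A match that runs past the TSS, as at Cp190 and dwg, is not in capitals.
Dref, chr2L:9967230-9967312, minus strand: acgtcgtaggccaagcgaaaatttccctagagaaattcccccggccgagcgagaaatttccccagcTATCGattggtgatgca
M1BP, chr3R:8731699-8731998, minus strand: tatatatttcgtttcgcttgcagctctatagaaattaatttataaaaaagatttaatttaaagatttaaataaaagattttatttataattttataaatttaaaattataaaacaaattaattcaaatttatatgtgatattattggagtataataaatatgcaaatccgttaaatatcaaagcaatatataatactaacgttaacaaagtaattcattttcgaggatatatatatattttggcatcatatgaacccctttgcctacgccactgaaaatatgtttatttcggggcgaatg
CTCF, chr3L:7356714-7356855, minus strand: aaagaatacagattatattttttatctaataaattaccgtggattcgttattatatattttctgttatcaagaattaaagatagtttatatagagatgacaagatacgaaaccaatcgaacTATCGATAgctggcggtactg
Cp190, chr3R:15275242-15275521, minus strand: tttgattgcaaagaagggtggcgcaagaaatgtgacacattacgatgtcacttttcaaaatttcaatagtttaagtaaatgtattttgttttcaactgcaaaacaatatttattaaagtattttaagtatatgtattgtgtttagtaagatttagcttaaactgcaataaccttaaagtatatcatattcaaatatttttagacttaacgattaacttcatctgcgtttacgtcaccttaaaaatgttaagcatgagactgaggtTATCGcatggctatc
mod(mdg4), chr3R:21377402-21377701, minus strand: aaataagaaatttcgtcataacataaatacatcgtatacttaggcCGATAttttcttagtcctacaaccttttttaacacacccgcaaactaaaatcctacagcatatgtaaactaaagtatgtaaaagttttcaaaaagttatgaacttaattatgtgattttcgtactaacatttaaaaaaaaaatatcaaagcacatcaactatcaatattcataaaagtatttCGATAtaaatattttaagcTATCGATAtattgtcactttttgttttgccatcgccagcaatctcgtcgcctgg
dwg, chrX:2727569-2727697, plus strand: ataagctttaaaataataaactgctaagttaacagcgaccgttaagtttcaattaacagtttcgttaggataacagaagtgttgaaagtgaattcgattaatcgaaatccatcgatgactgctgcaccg
The Dref run is the whole 83 bases between Dref and its divergent neighbour and has a GC content of 51.8%, while the other 5 runs lie between 22.0% (M1BP) and 34.9% (dwg).

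Optimal summits lay at the promoters of Dref and M1BP and of no other gene in the group. That made 2 of 9 genes, where 9.90% of all protein-coding genes had an optimal promoter summit, a share that corresponds to 0.891 of 9 genes. The 2 numbers differ by about 1 gene, so the count lies near the background. The count also moved with the replicate. Among the 2644 strongest entries of replicate 1, promoter summits were found at 4 of the genes (Cp190, mod(mdg4), M1BP and Dref, with 11.8% of all genes called), and among those of replicate 2 at 1 of them (Dref, with 8.78% called). In the span plus 5 kb, optimal summits were found at mod(mdg4), M1BP and Dref, 3 of 9 genes against 28.5% of all genes, and at 5 of 9 among the strongest entries of replicate 1 (32.2% of all genes called) and 3 of 9 among those of replicate 2 (27.5%). The 3 genes with optimal summits held 7 optimal summits in all, 4 of them at mod(mdg4). Over the spans plus 5 kb of all 9 genes, that was 0.0487 optimal summits per kb, against 0.0197 over the arms.

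In the whole lists of 30000 entries, promoter and span entries were common at these genes and in the genome. The pooled list includes the optimal summits, so its counts include those of M1BP and Dref. A promoter entry was present in the pooled list for 7 of 9 genes (39.1% of all genes called), in replicate 1 for 8 (48.0%) and in replicate 2 for 6 (37.7%). CTCF, BEAF-32, mod(mdg4), pita, M1BP and Dref had one in both replicate lists, as did 29.3% of all genes. In the span plus 5 kb, 8 of 9 genes had an entry in the pooled list (78.3% of all genes called), in replicate 1 (85.4%) and in replicate 2 (80.4%), all but dwg each time. Of the 11 pooled promoter summits of these genes, 9 lay upstream of the nearest TSS of the gene and 2 downstream, with a median offset of -105 bp. The share upstream over all genes was not computed, so this placement cannot be called particular to the group. The upstream summits include 1 at M1BP (308 bp) and 1 at su(Hw) (320 bp) that were nearer to a divergent gene.

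**Figure D1:**
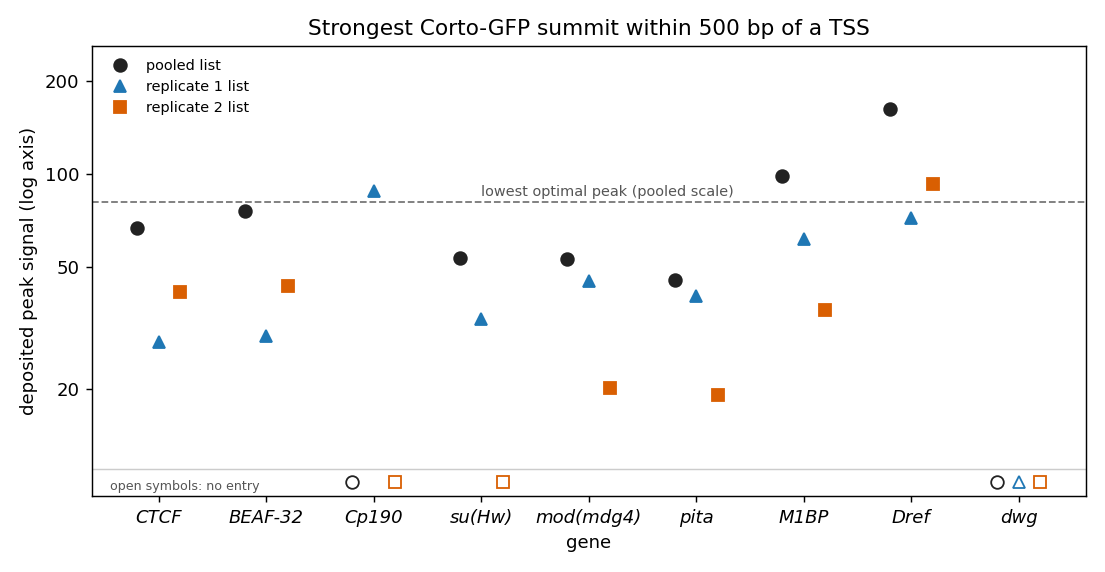
Deposited signal (log axis) of the strongest summit within 500 bp of a TSS for each of the 9 genes in the pooled, replicate 1 and replicate 2 lists; open symbols at the bottom mark genes with no entry, and the dashed line is the lowest optimal signal of 81.2, which applies to the pooled values. Dref (162) and M1BP (98.2) were above the line in the pooled list, and Cp190 had a value in replicate 1 alone (87.9).

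Dref encodes the factor that binds the DRE in promoters of genes for replication and growth, and its own promoter carried the strongest promoter summit of the group in the pooled and replicate 2 lists, while in replicate 1 that of Cp190 was stronger. The gene (FBgn0015664, 3.08 kb, minus strand, 2L 9964147 to 9967229) had a summit at 2L 9967266, 37 bp upstream of its only TSS. The signal there was 72.0 in replicate 1 and 93.0 in replicate 2, ranks 885 and 476 of 30000. The replicate summits were 3 bp or less from the pooled one. In the pooled list the signal was 162 (rank 583), above that of 92.9% of the 5454 genes with a pooled promoter summit. The summit lies in the 83-base run shown above, between Dref and RpL13, a ribosomal protein gene on the opposite strand whose nearest TSS is 84 bp away. It was 47 bp from that TSS and cannot be assigned to either gene. That run holds a single BEAF-32 core, 17 bp upstream of the Dref TSS, and no DRE. A weaker pooled entry (58.9, rank 4846) lay 1368 bp upstream, over a 3′ UTR with RpL13 as the nearest start, and was seen in both replicates (20.2 in replicate 1 and 38.0 in replicate 2). Another 4 pooled entries with signals from 27.5 to 50.4 lay over 3′ UTRs 6709 to 7999 bp downstream of the Dref TSS, and no replicate 2 entry was within 200 bp of any of them.

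M1BP encodes the zinc finger protein that binds motif 1, found at many promoters with paused RNA polymerase. The gene (FBgn0037621, 1.91 kb, minus strand, 3R 8729790 to 8731698) had 2 optimal summits in the 393 bp between its TSS and that of the divergent gene CG8202. The summit nearer M1BP, at 3R 8731797, was 99 bp upstream of M1BP and had a pooled signal of 98.2 (rank 1758). Replicate 1 gave 61.7 there (rank 1257), and replicate 2 had no entry within 200 bp. The second summit, at 3R 8732006, was 308 bp upstream of M1BP but 85 bp upstream of CG8202, with a pooled signal of 88.2 (rank 2228). It was found in both replicates, at rank 1966 in replicate 1 and with a signal of 36.1 at rank 4423 in replicate 2. By the 200 bp rule, the summit closest to the M1BP TSS was matched in replicate 1 alone. The summit matched in both replicates was nearer to CG8202. However, the 2 optimal peaks overlap (3R 8731597 to 8731996 and 8731806 to 8732205), and the replicate 2 peak (8731822 to 8732217) overlaps both. The summits therefore cannot be assigned to separate genes or to a single replicate. No M1BP summit was among the 2644 strongest of replicate 2. Neither the motif 1 core, searched as GGTCACACT on both strands, nor any of the other sequences searched occurred from 250 bp before to 50 bp after the M1BP TSS.

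The BTB cofactor genes differed from each other. mod(mdg4), which yields many isoforms with different C termini, some by trans-splicing, had the most summits. The gene (FBgn0002781, 26.6 kb, minus strand, 3R 21350846 to 21377401) is far longer than the others, at most 5.75 kb, and its neighbourhood held 4 optimal and 17 pooled summits. Per kb, that was 0.465 pooled summits, against 0.348 over all 9 neighbourhoods and 0.224 over the arms. BEAF-32 (0.658) and Dref (0.535) had more pooled summits per kb than mod(mdg4), CTCF had 0.457 and su(Hw) 0.354. Cp190 (0.203), M1BP (0.168), pita (0.127) and dwg (0) were below the value of the arms.

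None of the 4 optimal summits was at the mod(mdg4) TSS itself. The strongest, at 3R 21378755, had signals of 113 in replicate 1 and 129 in replicate 2 (pooled 234, rank 228). It was 1354 bp upstream of mod(mdg4) but 222 bp upstream of tin, a homeobox gene of heart mesoderm on the opposite strand. The next, at 3R 21365424, had 81.4 in replicate 1 and 83.6 in replicate 2 (pooled 167, rank 545). It was inside the gene, 11977 bp downstream of the TSS, and near the starts of transcripts that supply alternative 3′ exons for trans-splicing. The annotation lists these as 23 separate pre-mod(mdg4) genes with 7 distinct starts, 9 of them on the strand opposite to mod(mdg4). This 1 summit was within 500 bp of the starts of 10 of them, 3 on the strand of mod(mdg4) and 7 on the other. Those starts were 64 bp (pre-mod(mdg4)-E), 134 bp and 185 bp away. The summit at 3R 21374140 was in an intron or non-coding exon, 3261 bp downstream of the TSS, with 51.6 in replicate 1 and 67.8 in replicate 2 (pooled 124, rank 1096). The weakest of the 4, at 3R 21349902, was 301 bp upstream of aus, downstream of the mod(mdg4) end, with 27.7 in replicate 1 and 63.7 in replicate 2 (pooled 92.3, rank 2005). All 4 summits were found within 18 bp in both replicates.

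The 201 bases centred on the strongest of these summits, between mod(mdg4) and tin, are shown because the annotation places no exon there. They were read on the plus strand and hold no match to any of the 7 sequences searched, so that nothing is in capitals.
tin-side summit, chr3R:21378655-21378855, plus strand: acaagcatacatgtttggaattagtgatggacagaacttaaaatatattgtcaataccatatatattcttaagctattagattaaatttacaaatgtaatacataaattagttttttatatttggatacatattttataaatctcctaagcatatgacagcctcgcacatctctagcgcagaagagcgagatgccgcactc

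At the mod(mdg4) promoter itself the entries ranked differently in the replicates. Replicate 1 gave 45.0, 22 bp upstream of the TSS (rank 2444, above 77.2% of genes with a promoter entry in that list), with a second entry of 32.6, 225 bp upstream, and replicate 2 gave 20.2, 262 bp upstream (rank 12723, above 31.6%). The pooled entry, 195 bp upstream, had a signal of 52.8, above 54.8% of genes with such an entry. A DRE starts 54 bp upstream of this TSS.

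**Figure D2:**
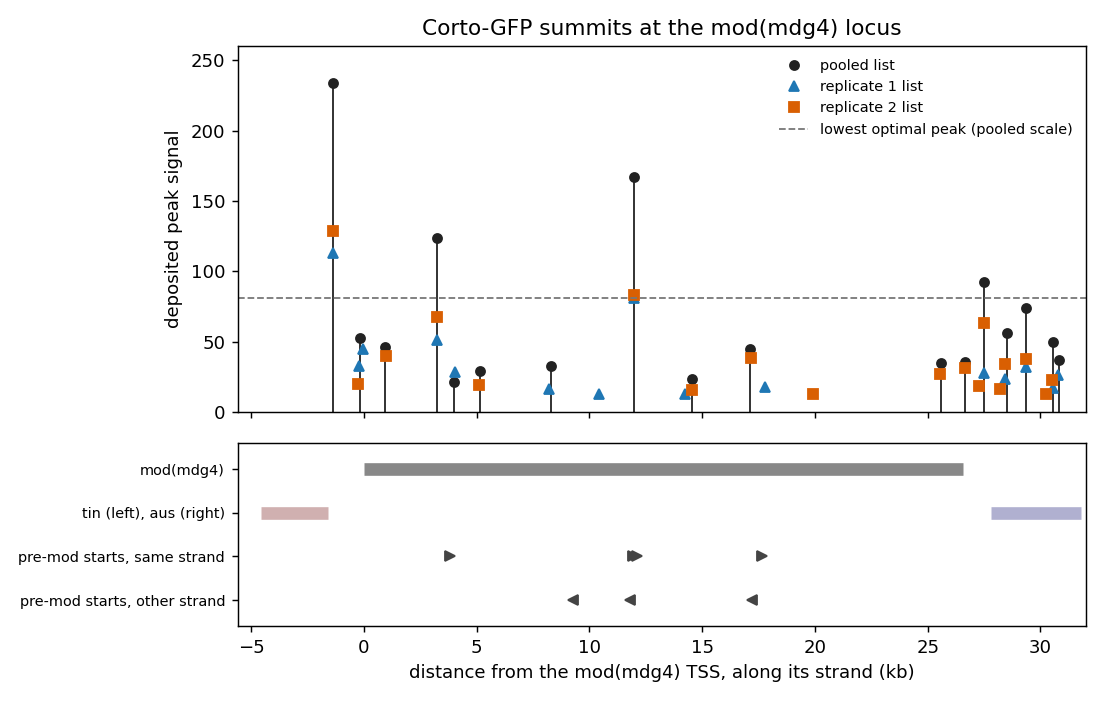
Upper panel: deposited signal of each pooled (stems), replicate 1 and replicate 2 entry against the distance in kb from the mod(mdg4) TSS along its strand, with the lowest optimal signal (81.2) dashed; lower panel: spans of mod(mdg4), tin and aus and the starts of pre-mod(mdg4) genes on each strand. The 4 pooled entries above the line lie next to tin (234), in an intron or non-coding exon (124), at pre-mod(mdg4) starts (167) and next to aus (92.3).

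Cp190, whose product joins several insulator proteins, had a strong promoter entry in replicate 1 and none in replicate 2. Replicate 1 had a summit 159 bp upstream of the TSS (3R 15275400) with a signal of 87.9 at rank 551, higher than at any other member promoter in that list. It was above 94.6% of the 6688 genes with a replicate 1 promoter entry. Replicate 2 and the pooled list had no entry within 500 bp of either TSS. The gene (FBgn0000283, 4.81 kb, minus strand, 3R 15270432 to 15275241) shares this upstream DNA with the divergent gene CG4338, whose TSS is 281 bp away, and the summit was 122 bp from the CG4338 TSS and so nearer to it. An entry of this kind, among the 2644 strongest of replicate 1 and with neither a pooled nor a replicate 2 entry at the promoter, was present for 1.53% of all genes. Of the 3 pooled summits near Cp190, the strongest was 35.4 and lay 4943 bp upstream, with the tropomyosin gene Tm1 as the nearest start. A DRE starts 21 bp upstream of 1 Cp190 TSS and 4 bp upstream of the other, where it runs past the end of the bases shown.

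Among the DNA-binding insulator proteins, BEAF-32 and CTCF came closest to the optimal set. BEAF-32 (FBgn0015602, 2.16 kb, plus strand, 2R 14770469 to 14772630), the boundary element factor first known from the scs' element, had 3 promoter entries in each of the 3 long lists. The strongest in the pooled list was 66 bp upstream of the first TSS with a signal of 75.9 at rank 3042, under the lowest optimal signal of 81.2. Replicate 1 gave 29.8 there and replicate 2 gave 37.7. Another, 111 bp upstream of the most downstream TSS, had a pooled signal of 53.4 and 43.3 in replicate 2 (rank 3072). Replicate 1 had an entry on either side of it, 12.8 at 103 bp (rank 24863) and 19.0 at 106 bp (rank 13073). In replicate 2 an entry of 48.4 (rank 2383), 1871 bp upstream of the first TSS with Spred as the nearest start, was among the 2644 strongest.

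CTCF (FBgn0035769, 3.14 kb, minus strand, 3L 7353578 to 7356713), the fly counterpart of the vertebrate insulator protein, had 1 promoter entry in each of the 3 long lists. The pooled one, at 3L 7356832, was 119 bp upstream of the TSS with a signal of 66.5 (rank 3895). Replicate 1 gave 28.5 (rank 6269) and replicate 2 gave 41.5 (rank 3340), each within 26 bp of the pooled summit. The DRE of this promoter starts 21 bp upstream of the TSS.

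su(Hw) and pita had lower pooled promoter signals than BEAF-32 and CTCF, but ranked above both in replicate 1. su(Hw) (FBgn0003567, 4.13 kb, minus strand, 3R 14304455 to 14308589) encodes the protein that binds the insulator of the gypsy retrotransposon. Its pooled promoter summits had signals of 53.4 (105 bp upstream) and 42.0 (320 bp upstream), the second being nearer to the divergent gene Polr2I, an RNA polymerase II subunit gene, at 180 bp. Replicate 1 had a single promoter entry of 33.8, 299 bp upstream, and replicate 2 had none. That entry was nearer to Polr2I, at 201 bp. su(Hw) is the only gene of the 9 with the motif 1 core in its promoter window, 6 bp past the TSS.

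pita (FBgn0034878, 5.75 kb, minus strand, 2R 23548967 to 23554712) encodes a zinc finger protein that recruits Cp190. Its pooled entry had a signal of 45.3, under the median of 48.8 over genes with such an entry, and lay 125 bp downstream of the upstream TSS. Replicate 1 gave 40.2 (rank 3135) and replicate 2 gave 19.2 (rank 13891). A replicate 1 entry of 45.7 (rank 2364), beyond the 3′ end of pita and 64 bp from the start of wmd, was the reason that the gene counted among those with a strong replicate 1 summit in the span plus 5 kb.

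dwg encodes Zw5, the zinc finger protein that binds the scs boundary element of the heat shock locus. The gene (FBgn0000520, 2.35 kb, plus strand, X 2727698 to 2730042) had no entry in any of the lists in its span plus 5 kb, 12.3 kb in all, as was so for 7.01% of all genes. The nearest entries were a replicate 1 summit of 20.5 at 9.05 kb, a pooled one of 37.2 at 10026 bp and a replicate 2 one of 27.3 at 10.2 kb from the gene. The nearest optimal summit was 14.2 kb away, with Syx4 as its nearest gene (181).

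**Figure D3:**
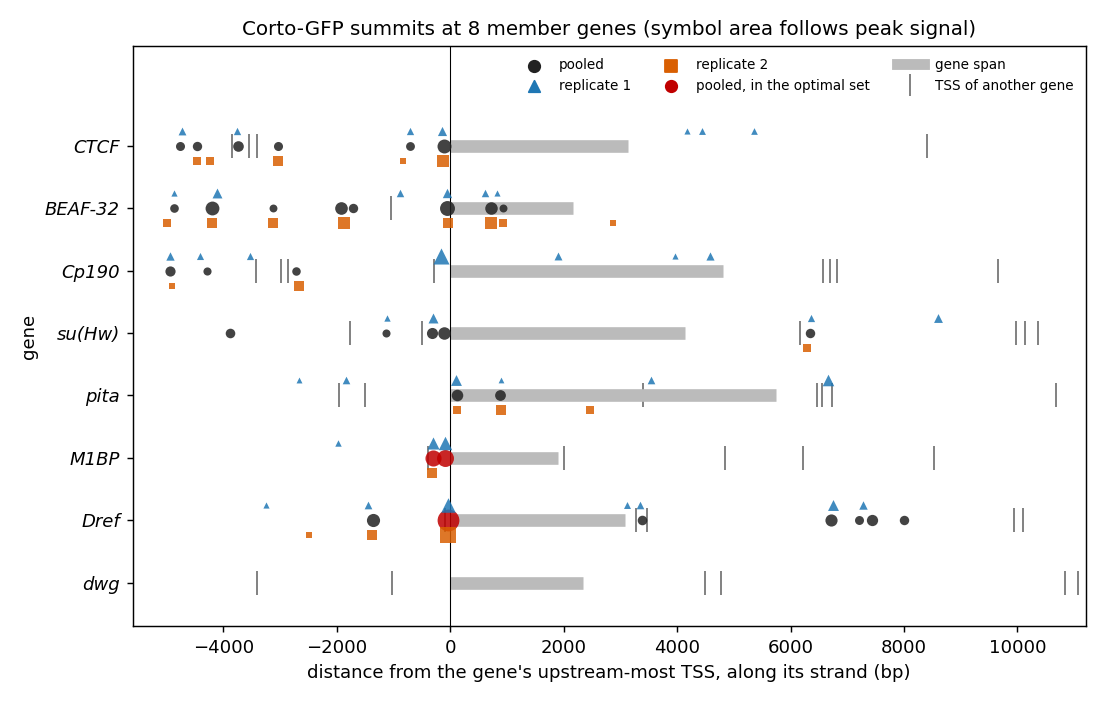
Summits of the 3 long lists at the 8 genes other than mod(mdg4) against the distance in bp from the upstream-most TSS along the gene's strand; symbol area follows the deposited signal, red marks pooled entries in the optimal set, grey bars are gene spans and ticks are TSSs of other genes. Red symbols appear at M1BP and Dref alone, within 308 bp of the TSS, and the dwg line is empty.

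**Figure D4:**
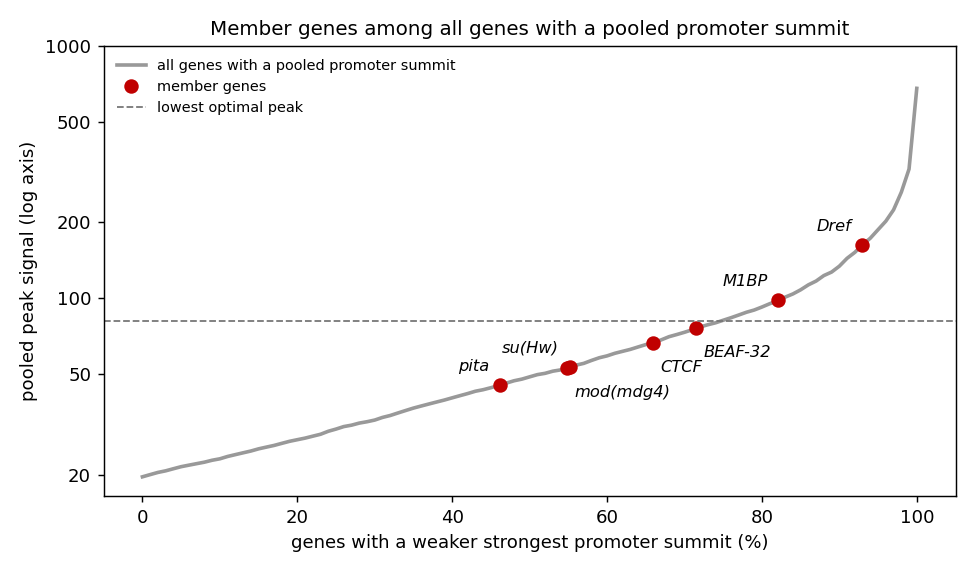
Pooled signal (log axis) of the strongest promoter summit against the percentage of genes with a weaker one, for all 5454 protein-coding genes with a pooled promoter summit (line) and the 7 members that have one (points); the dashed line is the lowest optimal signal. The members run from pita (46.2% of genes below) to Dref (92.9%).

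The rules for the windows had members close to either side. A flank of 5 kb left out a pooled summit at mod(mdg4) 5.07 kb beyond the gene (31.3) and one at Cp190 at 5.77 kb (65.4), while it took in the Cp190 entry 4943 bp upstream. At Dref, an optimal summit of 88.9 lay 6.91 kb beyond the gene.

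The recognition sequences of the encoded factors were spread unevenly over the promoters of the group. From 250 bp before to 50 bp after a TSS, a DRE was present at CTCF, BEAF-32, Cp190, mod(mdg4) and pita, 5 of 9 genes, where 10.2% of all genes and 7.98% of all 19253 distinct TSS windows had one. A CGATA core, which every DRE contains, was present at 7 of 9 genes (53.0% of all genes), all except su(Hw) and M1BP. The motif 1 core was present at 1 of 9 (6.78%), GAGAG, the repeat bound by GAGA factor, at 1 of 9, pita (36.3%), and the E-box CAGCTG at 1 of 9, CTCF (22.3%). The CTCF core AGNNGGCGC and the su(Hw) core GCATACTT were present at none (3.86% and 1.53% of all genes). The 5 genes with a DRE had no optimal promoter summit, and the 2 genes with one had no DRE. In the genome, 14.5% of 1417 genes with a DRE and 9.39% of 12528 genes without had an optimal promoter summit. Within 100 bp of the strongest pooled promoter summits of the 7 members that had one, no DRE was found, and 3 had a CGATA core. Within 100 bp of all pooled summits, at promoters or elsewhere, a DRE occurred at 1.32% and a CGATA core at 24.4%. A DRE is thus rare at summits, and its absence at these 7 says little. At CTCF the edge of the window around the summit cuts through the DRE, which starts 21 bp upstream of the TSS, with the summit 119 bp upstream.

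Other genes of chromosome architecture and core promoters were counted for comparison, from a list of 44 genes that covered partners of GAGA factor, insulator cofactors, cohesin and condensin, remodellers, general transcription factors and pausing factors. Of these, 11 (25.0%) had an optimal promoter summit, with 9.90% of all genes called. The list had 21 in the pooled list (47.7%, with 39.1% of all genes called), 34 in replicate 1 (77.3%, 48.0%) and 22 of 44 in replicate 2 (37.7% of all genes called). Chro, which encodes the chromodomain protein Chromator of interbands, was the strongest of the 11, with 239 in replicate 1 and 267 in replicate 2 (pooled 504, rank 20). Trl, the gene of GAGA factor, followed with 107 in replicate 1 and 91.1 in replicate 2 (pooled 178), and pds5, a cohesin regulator, with 83.9 and 85.2 (pooled 177). Taf4, a TFIID subunit gene (pooled 131), Cap-H2, of condensin II (124), Trf2, a TBP-related factor gene (104), and fs(1)h, of the BET family (96.6), had entries in both replicates at the summit.

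The last 4 genes were near the lower end of the optimal set. They were Spt5 (84.6) and Nelf-E (84.3), which encode pausing factors, row (82.7) and lolal (81.5), and at Spt5 and lolal no replicate 2 entry was within 200 bp of the summit. Of the insulator binding factor and ELBA genes in this list and ZIPIC, none had a pooled promoter entry. ZIPIC, Ibf1 and Ibf2 had one in replicate 1 alone, and Elba2 had one in replicate 2 alone (37.2). For insv there was one in both replicates (40.2 in replicate 1 and 37.2 in replicate 2), and for Elba1 and Elba3 in neither. Ibf1 and Ibf2 share a single entry (16.3, rank 16969), 18 bp and 481 bp from their TSSs. Elba2 and insv share the replicate 2 entry (rank 4148), at 483 bp and 207 bp. Among the cohesin genes, SMC1, Nipped-B and wapl had promoter entries in all 3 long lists below the optimal threshold, SMC3 and SA1 had one in replicate 1 alone, and vtd had none.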

How the data were processed

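ChIP-seq for Corto-GFP was done on whole embryos in 2 biological replicates, with chromatin sonicated to 200 to 800 bp, per the labels. The authors deposited narrowPeak lists on dm6 whose signal value was used as deposited; per the text notes beside the files, each replicate and pooled list derives from alignments and a control, and the optimal set derives from these lists by IDR. No source used here names the aligner, the peak caller, the IDR threshold or any read filter. Control reads and dm3 lists were not used here. A summit was the peak start plus the deposited offset.

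Genes were taken from Ensembl release 115 (assembly BDGP 6.54; 13945 protein-coding genes, 19607 TSSs) and sequence from the NCBI release 6 genome; 99.8% of annotated start codons read ATG in it. Python 3.11.15, numpy 2.4.6 and matplotlib 3.10.9 were used. Ranks count from the strongest entry of a list. Summits of different lists were matched within 200 bp, and assignment was checked on planted summits. No test was made, since there is 1 group, and intervals need depths that are unknown.

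The members, the list of 44 other genes and the 7 sequences were chosen with earlier results of these data known. Named genes were the members, genes that share a promoter summit with them and listed genes with an optimal promoter summit; Tm1, Spred, Syx4, wmd, ZIPIC, Ibf1, Ibf2, Elba1, Elba2, Elba3, insv, SMC1, SMC3, SA1, Nipped-B, wapl and vtd were named after their values were seen. Alternatives were other windows and flanks, each replicate alone, the stronger part of the optimal set, merged summits and assigning a summit to the closest TSS alone.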

Additional observations from a re-analysis of the deposited data

How the results depend on the processing

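The number of genes with an optimal promoter summit (2) was the same with windows of 250 and 1000 bp and when a summit counted for the closest TSS alone. It was between 1 and 4 when one replicate was left out and 1 in the stronger part of the optimal set (1322 peaks), where Dref alone had one. The number with an optimal summit in the span plus 5 kb (3) was between 3 and 5 without one replicate and 1 with no flank, since the Dref and M1BP summits lie upstream of the genes. It was 3 with flanks of 2 and 10 kb. The 7 optimal summits at these genes were between 6 and 9 without one replicate, 4 in the stronger part of the set and 2 with no flank. Of 70 values for single genes and sequences, 56 stayed within 1.5 times the reported one and 14 did not. Many of the 56 were counts of 0 that stayed 0, as at CTCF, su(Hw) and dwg in every setting. Smaller sets, narrower flanks or merged summits cannot lower a count of 0, so these values say little about stability. No paired analysis was possible because the 2 replicates form 1 group. With the depth of the replicates unknown, a missing entry says only that none was among the 30000 listed.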

Other observations

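The replicates were not alike in how often a strong entry stood by itself, as the one at Cp190 did. Of the 551 strongest entries of replicate 1, down to that summit, 16 (2.90%) had neither a replicate 2 nor a pooled entry within 500 bp, the strongest at rank 41. Of the 551 strongest of replicate 2, 0 had neither a replicate 1 nor a pooled entry. Among the 2644 strongest, the counts were 136 (5.14%) for replicate 1 and 3 (0.113%) for replicate 2. Read depths of the replicates are unknown.

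Of the 7 sequences searched, the E-box CAGCTG had the widest gap in optimal promoter summits, 514 of 3109 genes with it (16.5%) and 867 of 10836 genes without, followed by GAGAG with 14.2% of 5060 and 7.43% of 8885. The gap was 12.4% and 7.13% for CGATA, 12.8% and 9.69% for the motif 1 core, 14.9% and 9.70% for the CTCF core, and 9.39% and 9.91% for the su(Hw) core. These shares are of genes and do not place a sequence at the summit. Within 100 bp of a summit, the E-box occurred at 8.74% of optimal and 8.16% of pooled summits. For GAGAG these shares were 30.4% and 23.0%. Genes with more TSSs have more windows in which a sequence or a summit can be found, and no test of these gaps was made.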
